A study of Mus musculus with 8 samples.

Results

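Cxcl9, Cxcl10 and Cxcl11 are the 3 chemokines that signal through the receptor CXCR3, and they were examined in the hearts of mice given lipopolysaccharide (LPS), an outer-membrane glycolipid of Gram-negative bacteria. They are small secreted CXC chemokines without the Glu-Leu-Arg motif that marks the neutrophil-attracting members of the family, and they draw activated T cells and natural killer (NK) cells into tissue. Interferon-gamma is their classical inducer, and the transcription factor IRF1 takes part. Cxcl10 also responds to type I interferon and to NF-kB downstream of the LPS receptor TLR4, while Cxcl9 depends more narrowly on interferon-gamma. Endothelial cells, fibroblasts and macrophages are known sources.

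The genes were chosen by their LPS-minus-saline difference on these same arrays, which was known beforehand. Gene probes were assigned to the members through the RefSeq accession that the array gives for each spot. Of 35078 gene probes, 3 matched, 2 for Cxcl9 (mMR028932 and mMC000896) and 1 for Cxcl10 (mMC013715), so that 2 of the 15592 genes with a named probe were followed. No accession on the array matched Cxcl11 in the gene table used here, so its level was not analysed here. That table gave no symbol for 12066 gene probes, so this does not show that the array lacks a Cxcl11 probe. The same table lists Cxcl11 of the C57BL/6J genome as a transcribed pseudogene, and C57BL/6 mice are known to carry a frameshift in the gene.

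The study compared female C57BL/6 mice aged 12 weeks that were injected intraperitoneally, 4 of them with LPS at 5 mg/kg and 4 with saline. All animals were kept on chow in a barrier facility, and their hearts were perfused with PBS and removed 8 h after the injection. Total RNA from pieces of each heart was copied into biotinylated cRNA and read on a 1-colour spotted oligonucleotide array, 1 for each mouse. The RNA came from mixed heart tissue, so the cells that made a transcript were not identified. The heart label fitted the markers, since all 6 cardiomyocyte genes examined (Myh6, Tnnt2, Tnni3, Actc1, Ryr2 and Pln) were above background on every array. Between 37.3% and 46.9% of gene probes exceeded the negative-control limit of an array, that limit being 25.9 to 40.5 intensity units over local background. The number of arrays, 4 in each group, limits the precision of every value below.

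The 3 genes lie side by side on mouse chromosome 5 in the order Cxcl9, Cxcl10, Cxcl11. The 250 bases before the annotated start of the 2 measured genes are shown because both transcripts were higher with LPS and the regulators named above bind there in general. The sequences are those of RefSeq on build GRCm38.p6, minus strand, read 5′ to 3′ along the gene. Capitals mark every match, on either strand, to 3 motifs. These were the core of the interferon-stimulated response element (GAAA, any 2 bases, GAAA), the STAT dimer site TTCNNNGAA and the kB consensus of NF-kB, and they were picked after the sequences had been looked at.
Cxcl9, chr5:92328080-92328329: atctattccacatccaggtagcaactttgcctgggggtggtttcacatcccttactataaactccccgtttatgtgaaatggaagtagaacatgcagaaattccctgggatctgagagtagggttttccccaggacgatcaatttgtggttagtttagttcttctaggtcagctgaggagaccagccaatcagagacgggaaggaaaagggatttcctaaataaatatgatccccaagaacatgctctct
Cxcl10, chr5:92348890-92349139: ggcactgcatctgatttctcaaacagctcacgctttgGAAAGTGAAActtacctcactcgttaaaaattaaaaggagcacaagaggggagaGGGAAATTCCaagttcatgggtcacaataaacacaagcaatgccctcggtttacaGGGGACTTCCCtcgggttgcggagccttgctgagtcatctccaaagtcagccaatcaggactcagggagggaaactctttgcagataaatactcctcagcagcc
The Cxcl10 window held 1 response element core, at bases -213 to -204 from the start. It also held a kB match at -159 to -150 and overlapping kB matches between -104 and -94. None of the 3 motifs was found in the Cxcl9 window, which says only that these letters are not in these bases. Among 32851 promoter windows of the same length, 2.98% held the response element core, 7.25% the kB consensus and 7.02% the STAT site.

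Both measured genes were far higher on the LPS arrays. The brighter Cxcl9 probe read 21009, 19661, 3996 and 14945 intensity units over local background in LPS mice 1 to 4. In saline mice 1 to 4 it read 297, 120, 80 and 139. Its lowest LPS array was thus 13.5 times its highest saline array, and it was above background on all 8 arrays. After normalization the log2 level was 14.12, 14.53, 12.33 and 14.41 with LPS, a mean of 13.85 ± 1.03 (SD, n = 4). It was 7.58, 7.38, 7.27 and 7.63 with saline, a mean of 7.46 ± 0.17 (SD, n = 4). The log2 difference of 6.38 corresponds to 83.6-fold on the normalized scale. In bulk tissue, more cells that make a transcript and more transcript per cell cannot be told apart.

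The other Cxcl9 probe was dimmer and moved the same way. It read 1842, 786, 221 and 576 units with LPS and 35, 27, 29 and 43 with saline, where it passed the negative-control limit on 2 of 4 arrays. Its log2 level averaged 9.77 ± 1.00 (SD, n = 4) with LPS and 6.48 ± 0.16 (SD, n = 4) with saline, a difference of 3.28. As a fold that was 9.73, and with saline so near the limit it depended on the background treatment, with a log2 difference of 3.91 at a smaller offset. The ratio of mean raw signals was 25.6 for this probe and 93.7 for the brighter one. The spots of the 2 probes also differed in evenness. On the LPS arrays the mean pixel brightness over background of the dimmer probe was 2.75 to 3.92 times its median, whereas that of the brighter probe was 0.75 to 0.79 times its median. With mean in place of median brightness the 2 changes came closer, at 5.53 and 4.00 on the log2 scale.

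Cxcl10 was close to the detection limit without LPS. Its probe read 8082, 3533, 395 and 3698 units over background in LPS mice 1 to 4, against 33, 21, 30 and 28 in saline mice 1 to 4. It passed the negative-control limit on saline 3 only, so the size of the rise depends on how background was treated. The log2 level was 12.80, 12.14, 9.09 and 12.49 with LPS, a mean of 11.63 ± 1.71 (SD, n = 4). With saline it was 6.29, 6.31, 6.57 and 6.45, a mean of 6.40 ± 0.13 (SD, n = 4). The log2 difference of 5.23 (37.5-fold) became 5.95 when a smaller background offset was used, and 4.27 with mean spot brightness.

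For all 3 probes every LPS array lay above every saline array, an arrangement seen in 994 of 8870 tested genes (11.2%). The members were chosen with this comparison known, so their changes are described without a test and nothing is read from that count. For context, limma called 1730 genes (19.5%) at an adjusted p of 0.05, 864 higher (9.74%) and 866 lower (9.76%). Among the 7453 genes above background on all 8 arrays, each by its brightest probe, Cxcl9 ranked 3 by size of rise. It came behind the siderophore-binding protein Lcn2 and the chemokine Cxcl5. The rank depends on the probe, since with its probes averaged Cxcl9 rose by 4.83, less than Cxcl1 at 5.00.

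**Figure D1:**
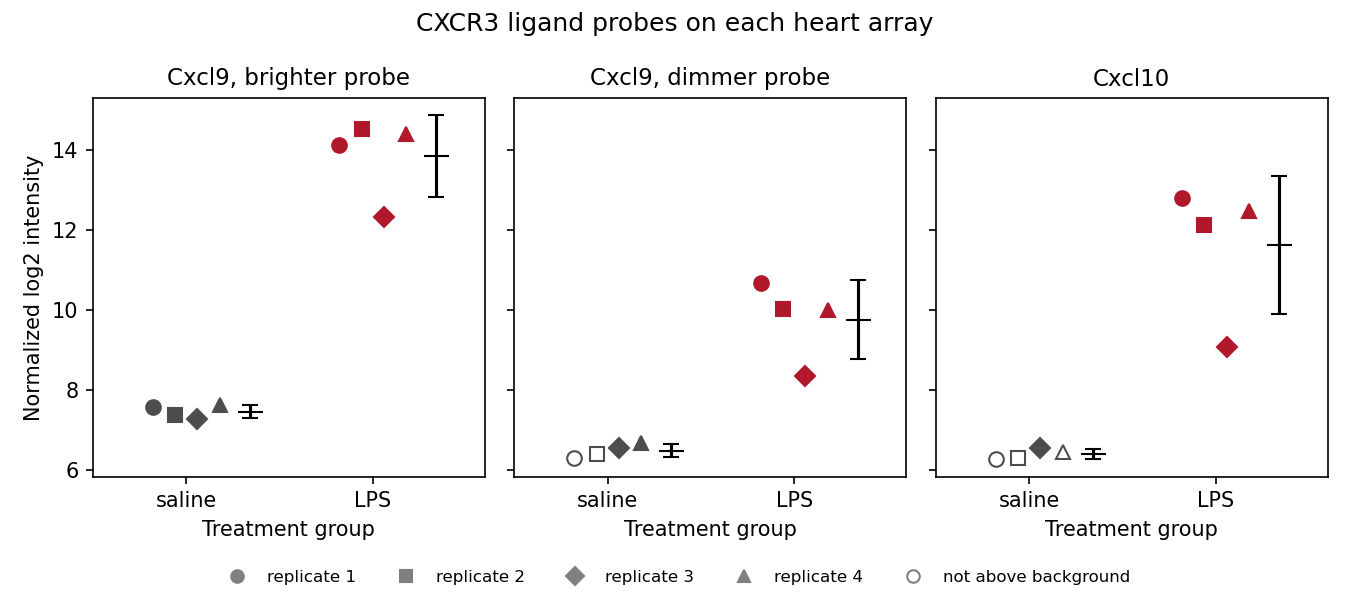
Normalized log2 intensity of the 3 probes on each saline and LPS array. Symbols give the replicate number, open symbols are spots not above background, and bars are the mean ± SD of 4 arrays. LPS 3 is the lowest LPS array in each panel and still lies above every saline array.

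Among the LPS mice the same animal was the lowest for every probe, a pattern noticed after the values were seen. LPS 3 had a log2 level of 12.33 for the brighter Cxcl9 probe, against a mean of 14.36 ± 0.21 (SD, n = 3) on the other LPS arrays, a 4.06-fold gap. The dimmer Cxcl9 probe showed a 3.70-fold gap. For Cxcl10 the gap was 10.5-fold, from 12.48 ± 0.33 (SD, n = 3) down to 9.09. The level on LPS 3 still exceeded the highest saline level by 4.71 and 2.53 on the log2 scale for the brighter Cxcl9 probe and Cxcl10. Without LPS 3 the log2 changes were 6.91 for Cxcl9 and 6.11 for Cxcl10.

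LPS 3 was the lowest LPS array for many induced genes, but seldom by so wide a log2 gap. The gaps were not scaled to the size of each rise, and a larger rise leaves room for a wider gap. The brighter Cxcl9 probe rose by 4.87 on LPS 3 against 6.66 to 7.07 elsewhere. Cxcl10 rose by 2.69 there against 5.74 to 6.40. Of 414 genes called at least 2-fold higher, 301 (72.7%) were lowest on LPS 3, and their median gap to the mean of the other LPS arrays was -0.70 on the log2 scale. The gap was -2.02 for Cxcl9 and -3.39 for Cxcl10. Only 16 of the 414 genes, Cxcl9 included, had a gap as wide as that of Cxcl9. The others were Ankrd2, Cxcl10, Socs1, Ubd, Cxcl5, Fjx1, Igtp, Cd274, Upp1, Rsad2, Mmp13, Batf2, Rcan1, Irf1 and Ido1, named after their values were seen. Only Cxcl10 itself and the muscle ankyrin protein Ankrd2 had a gap as wide as that of Cxcl10.

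Over the 414 genes the mean log2 rise over saline came to 1.43 on LPS 3 against 2.08 to 2.18 elsewhere. The risen genes of the lists are set beside that, but they were called higher at any size and some rose less than 2-fold. The 7 interferon-gamma targets that rose were all lowest on LPS 3, with a mean log2 rise over saline of 1.38 there against 2.96 to 3.01 elsewhere. The same held for the 7 risen genes of the interferon-gamma route (1.01 against 2.29 to 2.65) and the 4 of the type I route (1.48 against 2.15 to 2.66). In the LPS receptor and NF-kB list 8 of 12 risen genes (66.7%, near the share of all 414) were lowest on LPS 3, with means of 1.36 against 1.72 to 1.78. None of the 4 neutrophil markers was lowest there, and their mean rise was 1.78 on LPS 3 against 1.47 to 1.64 elsewhere. The summed level of 6 endothelial markers, mostly that of Pecam1 and Cdh5, was 6799 on LPS 3. It was 4209 to 4493 on the other LPS arrays and 6499 to 8435 on saline arrays. Most of the higher sum on LPS 3 came from the Pecam1 probe, at 11.73 on the log2 scale against 10.13 to 10.54 on the other LPS arrays. Cdh5 and Eng on LPS 3 lay within the range of the other LPS arrays. The dimmer Tek, Emcn and Kdr were higher on LPS 3 than on the other LPS arrays. LPS 3 had 42.6% of its gene probes above background, against 37.3% to 41.5% on the other LPS arrays. Whether cell content or array quality had a part in the low values of LPS 3 was not tested.

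**Figure D2:**
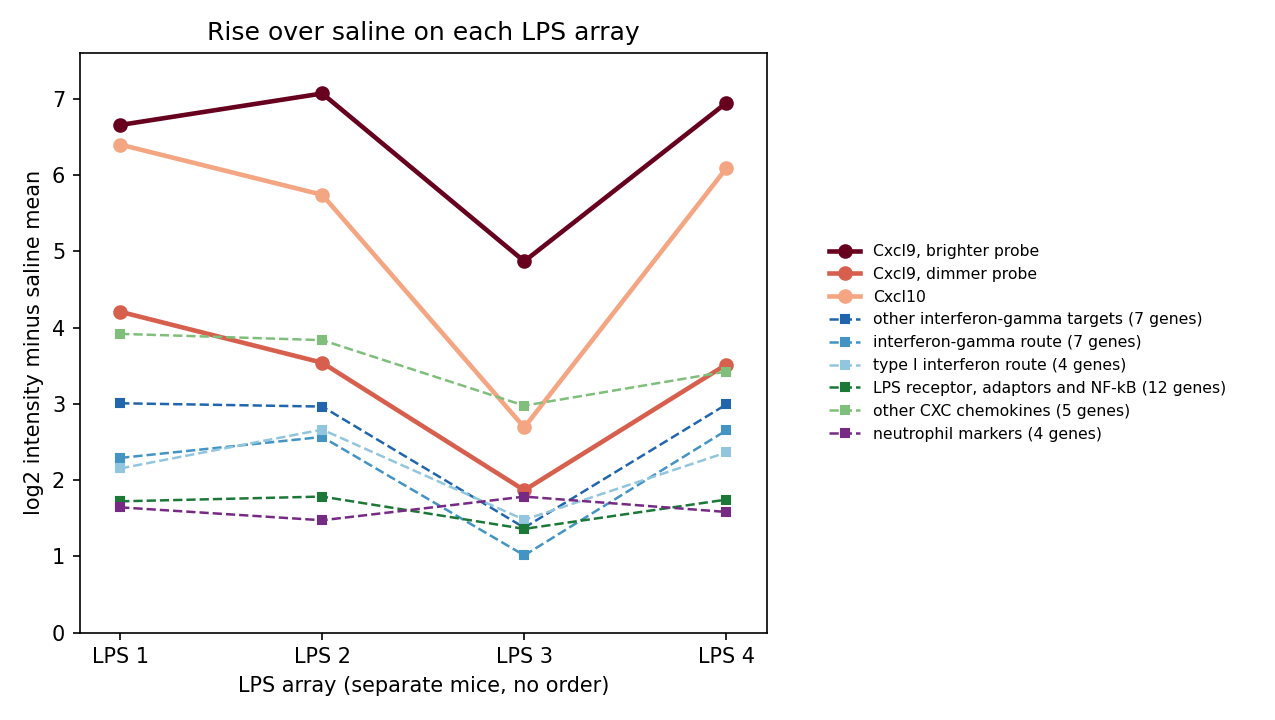
Log2 intensity minus the saline mean on each LPS array, for the 3 member probes (solid) and for the mean of the called higher genes of 6 lists (dashed). Lines only join the values of 1 probe or list, as the arrays are separate mice in no order. Cxcl9, Cxcl10 and every list but the neutrophil markers are lowest at LPS 3. The other CXC chemokines are at 2.98 there against 3.42 to 3.92 elsewhere, and the neutrophil markers are at 1.78 there.

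The genes nearest to Cxcl9 and Cxcl10 in pattern were other genes that were high with LPS, as the measure requires. Likeness was the root mean square difference over the 8 arrays between log2 levels centred on each gene's saline mean, taken against 8856 genes. The nearest to Cxcl9 was Cxcl5, a neutrophil-attracting chemokine, at 0.31. It was followed by the pattern recognition molecule Ptx3 (0.53), Lcn2 (0.82), Cxcl10 (0.97) and the granulocyte growth factor Csf3 (1.04). Nearest to Cxcl10 were Csf3 (0.55), the interferon-inducible GTPase Igtp (0.59), the cytokine signalling inhibitor Socs1 (0.79), Ptx3 (0.86) and the chemokine Ccl5 (0.89). Ptx3, Csf3 and Ccl5 were above background on no saline array, so their distances rest partly on the background treatment. They were at least 49.5-fold, 22.4-fold and 18.3-fold higher with LPS, given as a description because they were picked for this pattern. For such a bound each dim saline spot was set no lower than the dimmest detected probe of its array. The log2 difference was 6.48 for Cxcl5 and 7.18 for Lcn2.

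The receptor for these ligands was not detected in the heart. The Cxcr3 probe was above background on none of the 8 arrays, with log2 values of 5.88 to 6.04 with LPS and 5.95 to 6.16 with saline. Of 9 receptors and modifiers of the ligands, 7 were tested, 1 rose, 1 fell and 5 did not pass. The list median was -0.13, against -0.05 over all 8870 genes. Ackr1, an atypical receptor of venular endothelium and red cells that binds many inflammatory chemokines, read 9.94, 10.47, 8.85 and 8.44 in LPS mice 1 to 4, against 6.41 to 6.57 with saline. Its rise of 2.92 (SE 0.38, adjusted p = 0.000687) was the largest of this list, and it was above background on 2 saline arrays. Anpep, an aminopeptidase that can trim chemokines, was above background on 4 saline arrays and on no LPS array. It was thus kept through saline alone, so its call could only be a fall. It was at least 1.08-fold lower (limma adjusted p = 0.00839). The call was lost when arrays were scaled to the median of the tested probes (-0.26, adjusted p = 0.336). Ackr3, which binds CXCL11 and CXCL12 without classical signalling, differed by 0.28 on the log2 scale (SE 0.11, adjusted p = 0.102), and passed under 4 alternatives (adjusted p 0.0333 to 0.0440). Dpp4, the peptidase that clips the amino terminus of these ligands, had a change of -0.30 (SE 0.12, adjusted p = 0.103) and passed with a trended prior (adjusted p = 0.0370). It was above background on no LPS array. Pf4, platelet factor 4, another CXC chemokine, had a change of -0.13 (SE 0.24, adjusted p = 0.739).

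Most markers of the T and NK cells that carry CXCR3 were not above background. Of 19 such genes 18 had a probe and 4 were above background on enough arrays to be tested, and none of the 4 passed in limma (0 also at an unadjusted p under 0.05). Cd3e, a subunit of the T cell receptor complex, had a change of 0.06 (SE 0.12, adjusted p = 0.763) and was above background on 2 LPS and 4 saline arrays. Cd3d, Cd3g, Cd2, Cd4, Ncr1, Klrk1, Prf1, Gzma, Gzmb, Eomes and Cxcr6 were above background on no array by their brightest probe. Nkg7, a granule protein of cytotoxic cells, was above background on 1 LPS and 2 saline arrays, the T cell kinase Lck on 2 LPS arrays and the chemokine Xcl1 on 1 LPS array. No probe matched Cd8a. The summed level of the 4 tested markers was 2491 to 2798 with LPS and 2353 to 3636 with saline, ranges that overlap, but most of each sum came from the single bright probe of Cd8b1. At this brightness a change in these cells was mostly not detectable.

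Of the interferon genes only Ifng and Ifnb1 were examined, and neither was above background on an LPS array, while part of the genes that carry interferon signals rose. Ifng was above background on no LPS array and on 1 saline array, saline 3, where it read 8.22 against 6.06 to 6.13 on the other saline arrays and 6.15 to 6.40 on the LPS arrays. Ifnb1 was above background on no array. Of 20 genes of the interferon-gamma route 13 were tested, 7 rose, none fell (none also at an unadjusted p under 0.05 in limma) and 6 did not pass, with a median log2 change of 0.89. Over all 8870 tested genes 9.74% were called higher and 9.76% lower, and the median was -0.05. Those values also stand beside the counts of the lists below. Irf1, an interferon-inducible transcription factor, rose by 3.30 (SE 0.48, adjusted p = 0.00148), with 11.17 on LPS 3 against 12.74 to 13.85 elsewhere, and its other probes gave 2.66 and 1.95. Socs1, the feedback inhibitor of the pathway, rose by 4.21 (SE 0.62, adjusted p = 0.00150) and read 9.21 on LPS 3 against 11.95 to 12.80, while its other probe gave 2.14. The receptor chain Ifngr1 rose by 1.04 (SE 0.24, adjusted p = 0.0132). Its partner Ifngr2 had a change of -0.03 (SE 0.15, adjusted p = 0.901).

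In the type I interferon route 8 of 10 genes were tested, 4 rose, 1 fell and 3 did not pass (median 1.12). Stat2 and Irf9, parts of the complex that binds response elements, rose by 2.35 (SE 0.26, adjusted p = 0.000314) and 1.77 (SE 0.19, adjusted p = 0.000246), and another Irf9 probe gave 0.98. Irf7, an interferon-inducible activator of interferon genes, rose by 2.26 (SE 0.27, adjusted p = 0.000485), and the deISGylase Usp18 by 2.27 (SE 0.31, adjusted p = 0.000946). The kinase Tyk2 fell by 0.53 on the log2 scale (SE 0.15, adjusted p = 0.0335), and the call ended when any single array other than LPS 3 or saline 4 was left out (adjusted p 0.0626 to 0.0917). Irf3, which TLR4 activates by phosphorylation, had a change of -0.13 (SE 0.19, adjusted p = 0.671).

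In the LPS receptor, adaptor and NF-kB list 21 of 22 genes were tested, 12 rose, none fell (none also at an unadjusted p under 0.05 in limma) and 9 did not pass, with a median of 1.05. Tnfaip3, the A20 feedback inhibitor, rose by 4.43 (SE 0.19, adjusted p = 9.23e-07) and the kinase Ikbke by 1.97 (SE 0.17, adjusted p = 6.79e-05). Tlr4 itself rose by 0.75 (SE 0.19, adjusted p = 0.0222), a call that ended without LPS 2 or 4, or without saline 1 or 2 (adjusted p from 0.0514 to 0.0666), and another probe gave 0.51. Ticam1, the adaptor that links TLR4 to interferon genes, had a change of 0.24 (SE 0.22, adjusted p = 0.468). Among other interferon-gamma targets 8 of 10 were tested, 7 rose and none fell (none also at an unadjusted p under 0.05 in limma). H2-Ab1 did not pass (0.16, SE 0.25, adjusted p = 0.697). The median of the 8 was 2.17. Ido1 was above background on no saline array, so it was kept through LPS alone and its call could only be a rise. Nos2 and Ciita were too dim to test. Igtp rose by 4.67 (SE 0.50, adjusted p = 0.000246), and Cd274, the checkpoint ligand PD-L1, by 3.03 (SE 0.48, adjusted p = 0.00242).

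**Figure D3:**
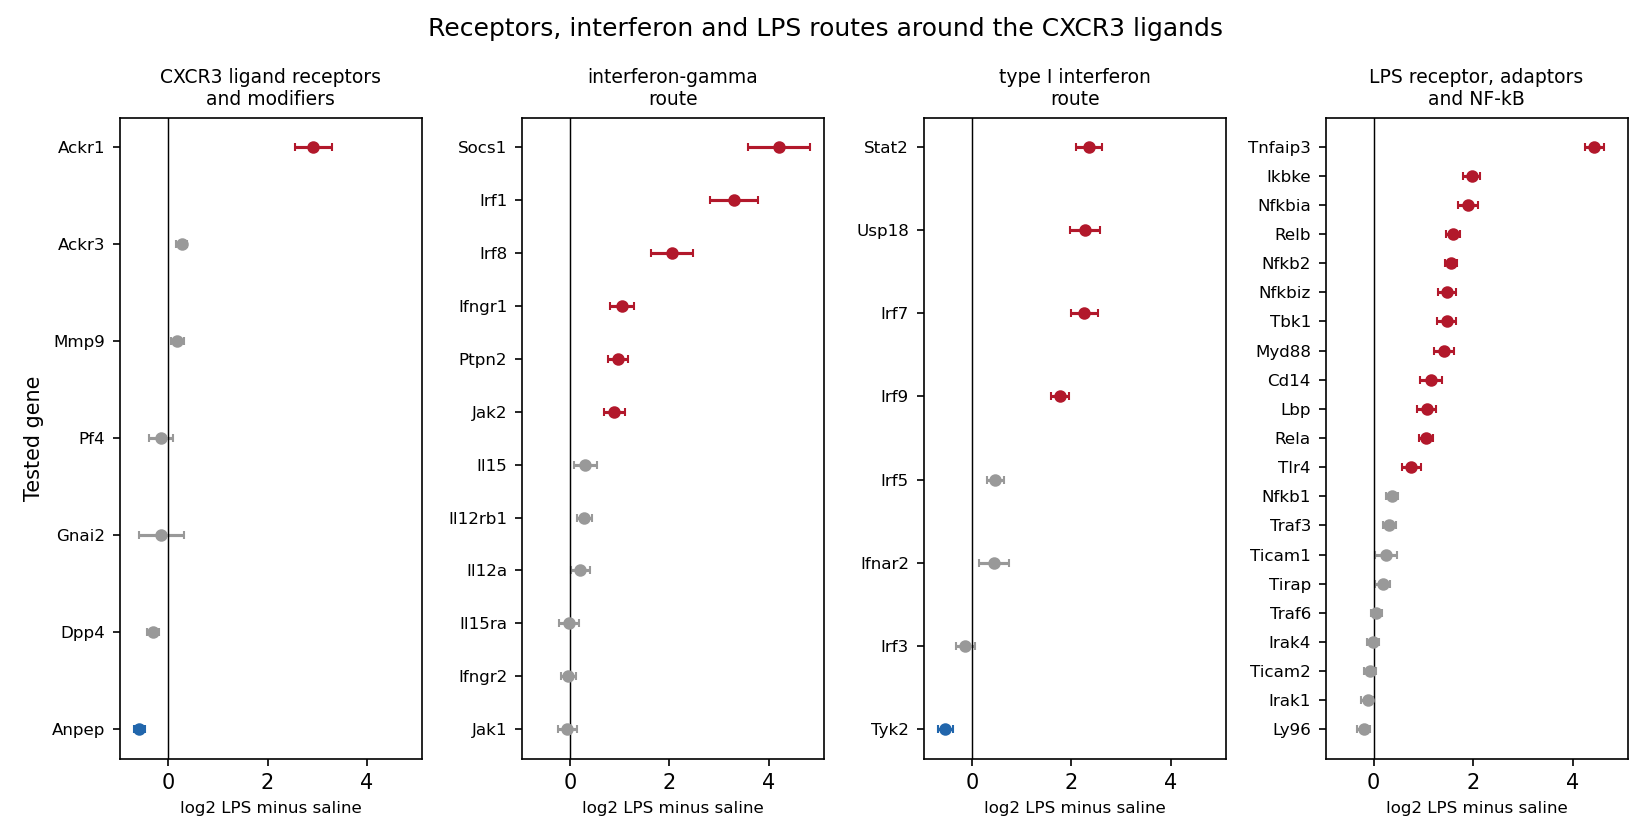
Log2 LPS minus saline for the tested genes of 4 lists around the ligands, apart from 1 gene not reported here. Points are limma estimates from 4 LPS and 4 saline arrays, bars are their standard errors, red marks genes called higher, blue genes called lower and grey genes that did not pass. Socs1 and Tnfaip3 are the largest rises of their lists.

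Other CXC chemokines moved in both directions. Of 10 genes 8 were tested, 5 rose, 1 fell and 2 did not pass, with a median of 1.40. Cxcl1, a neutrophil attractant, read 12.67, 11.61, 11.06 and 11.01 in LPS mice 1 to 4, against 6.50 to 6.65 with saline, and rose by 5.00 (SE 0.31, adjusted p = 1.21e-05). Unlike Cxcl9 and Cxcl10, it was about as high on LPS 3 as on LPS 4. Cxcl5 read 10.97 on LPS 3 against 13.68 to 13.89 elsewhere. Cxcl16, the ligand of CXCR6, rose by 1.10 (SE 0.29, adjusted p = 0.0266), and its other probes gave 0.30 and 1.61. Without LPS 2 or 4, or saline 1 or 2, the call of Cxcl16 ended (adjusted p from 0.0560 to 0.0787). The brightest probe was picked anew in each run. Without LPS 1 the value was 0.37 (limma adjusted p = 0.332), near the 0.30 of another probe. It is therefore not read as the effect of leaving out that mouse. Cxcl12, a homeostatic chemokine, fell by 2.38 on the log2 scale (SE 0.36, adjusted p = 0.00183), and its other probes gave -2.44, -0.43 and -0.14.

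No gene next to the cluster passed the test. The 5 protein-coding genes on each side and Art3, which starts between Cxcl9 and Cxcl10 and runs across Cxcl10 and Cxcl11, gave 5 tested genes. By limma 0 of them were called (1 higher and 0 lower at an unadjusted p under 0.05), and their median change was 0.24. Art3, an ADP-ribosyltransferase family member, read 12.54 to 12.89 with LPS and 12.35 to 12.79 with saline. Its change was 0.24 (SE 0.14, adjusted p = 0.264), and another probe gave 0.34. Sdad1, the tested gene nearest to Cxcl9 on the other side, had a change of 0.27 (SE 0.12, adjusted p = 0.163), and passed with mean spot brightness (0.50, adjusted p = 0.0105). Uso1, a Golgi tethering factor, had 0.37 (SE 0.14, adjusted p = 0.103), the lysosomal receptor Scarb2 0.12 (SE 0.13, adjusted p = 0.564) and the glycogen-binding Stbd1 -0.35 (SE 0.24, adjusted p = 0.337). Nup54, Ppef2, Naaa and Ccdc158 were not bright enough to be tested, and no probe matched Gm46933 or Fam47e.

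**Figure D4:**
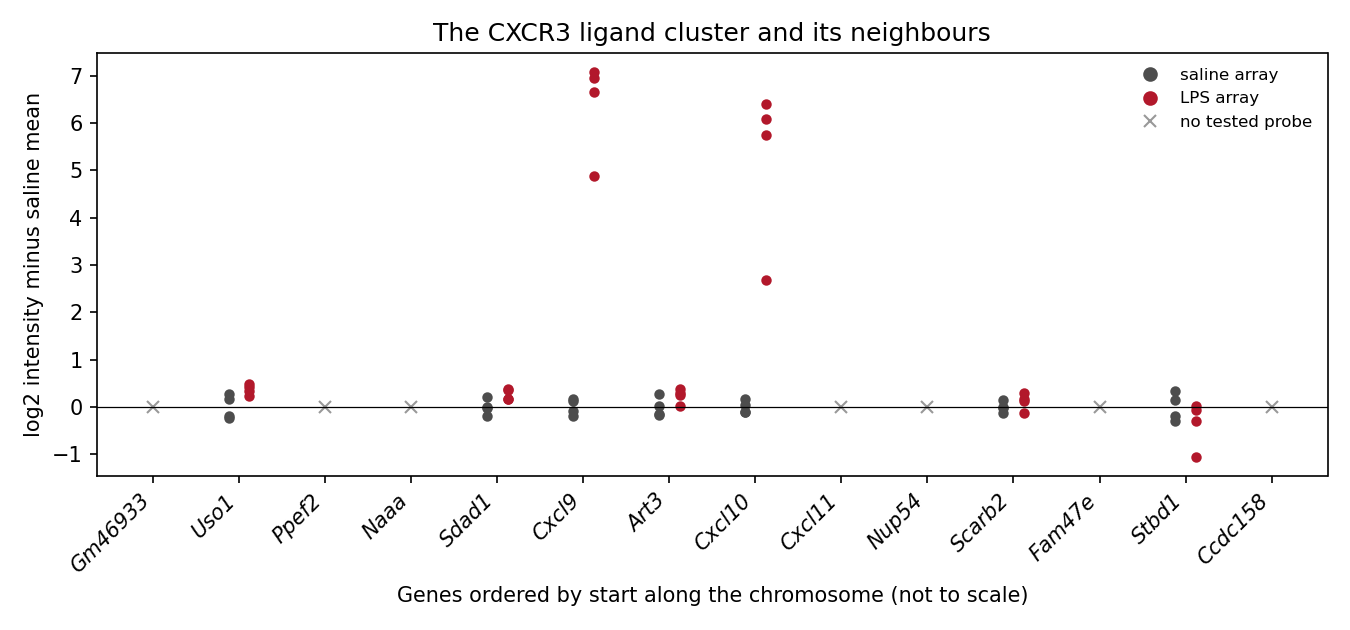
Log2 intensity minus the saline mean for Cxcl9 (brighter probe), Cxcl10 and the protein-coding genes around them, placed in order of start along the chromosome and not to scale. Each dot is 1 array, and crosses mark genes without a tested probe. The LPS arrays of Cxcl9 and Cxcl10 lie 2.69 to 7.07 above the saline mean.

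Markers of cells that could make or receive these chemokines moved as follows. All 4 tested neutrophil markers of 8 listed were called higher by limma. They were led by the calprotectin subunits S100a8 at 3.12 (SE 0.36, adjusted p = 0.000391) and S100a9 at 1.85 (SE 0.28, adjusted p = 0.00190). The summed level of the 4 was 1691 to 2299 with LPS, mostly that of S100a8, and 289.3 to 742.7 with saline. Csf3r was above background on no saline array, so it was kept through LPS alone and its call could only be a rise. Of the untested markers Mpo was above background on 3 LPS arrays, Elane and Cxcr2 were on no array, and no probe matched Ly6g. Of 6 endothelial markers 2 were called lower by limma and none higher (5 lower and 0 higher at an unadjusted p under 0.05). Their median log2 change was -0.61. The angiopoietin receptor Tek fell by 1.82 on the log2 scale (SE 0.27, adjusted p = 0.00168) and the co-receptor Eng fell by 0.72 (SE 0.16, adjusted p = 0.0129). Without saline 1 the lower call of Eng ended (adjusted p = 0.158). Of 8 macrophage and monocyte markers 5 were tested. C1qa, a complement component, fell by 0.89 (SE 0.16, adjusted p = 0.00505), and the other 4 did not pass. Fcgr1, too dim to test, was above background on 3 LPS arrays and on no saline array. No probe matched Csf1r or Cd68. The summed level of the tested markers was 6167 to 7326 with LPS against 6872 to 8163 with saline, mostly from the bright Cd163 probe. Of 6 fibroblast markers 5 were tested. Col1a1, a fibrillar collagen, fell by 0.92 on the log2 scale (SE 0.25, adjusted p = 0.0306), the proteoglycan Lum was also called lower (adjusted p = 0.0220), and the proteoglycan Dcn rose by 0.48 (SE 0.13, adjusted p = 0.0281), though its other 3 probes gave -0.53 to -0.14. Each of these 3 fibroblast calls ended when any of several single arrays was left out. None of 6 cardiomyocyte markers passed in limma (2 lower and 0 higher at an unadjusted p under 0.05). All 4 B cell markers were too dim to test. The part of these cells in the rise of Cxcl9 and Cxcl10 was not tested.

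The rise of both genes was present in each batch that held both groups. Among the arrays of the first scan day, which were LPS 2 to 4 with saline 3 and 4, the log2 difference was 6.31 for the brighter Cxcl9 probe and 4.73 for Cxcl10. On the second scan day, with LPS 1 and saline 2 alone, it was 6.74 and 6.50. The slide series numbered together with the saline arrays held LPS 1 as its only LPS array and gave 6.66 and 6.40. The 4 arrays whose file names carry the mark redip, which the sources used here do not explain, gave 6.97 and 5.94. The 4 arrays without it, which include LPS 3, gave 5.80 and 4.52. Within the first scan day alone, with 5 arrays, Ackr1, Irf1, Socs1, Cd274, Usp18, Cxcl12, Tek and S100a9 kept their direction but lost their call (limma adjusted p 0.0605 to 0.0875). So did Ifngr1 (0.83, adjusted p = 0.157), Anpep (-0.44, adjusted p = 0.108), C1qa (-0.69, adjusted p = 0.119) and the genes whose calls ended without single arrays. Slide series lay almost along the groups, and with it as a block the calls of C1qa (adjusted p = 0.0536), Anpep (0.0523), Tyk2 (0.0539), Cxcl16 (0.0789), Eng (0.243), Tlr4 (0.438), Col1a1 (0.212), Lum (0.398) and Dcn (0.292) were lost.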

How the data were processed

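Spot and background intensity values were deposited as scanned at 635 nm and exported by GenePix Pro 4.1.1.4, unnormalized, per the file headers. No header or label used here names a genome build. The deposited value table was not used, because 0 of its 34945 probe identifiers occur in the scanner files.

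Median intensities were corrected by normexp with an offset of 50 in limma 3.58.1 (R 4.3.3), put on a log2 scale and quantile normalized. Bad spots were missing values. A spot counted as above background when it exceeded the 95th percentile of 94 negative controls on its array. Probes above background on at least 4 of 8 arrays were kept, and the brightest stood for each gene (8870 genes and 3254 unnamed probes). The 2 groups were set against each other with limma's moderated linear model, with Benjamini-Hochberg adjustment over all 12124 features. The linear model alone was tried on simulated normalized values with independent noise. That simulation did not cover background correction, normalization or batches. Replicates were separate mice.

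The members, the 13 gene lists and the alternatives were chosen with earlier results of these data known. Genes named with values are all member probes, the 2 strongest rises and 2 strongest falls called per list, a fixed set of receptors and regulators, the 5 nearest in pattern and the chromosomal neighbours. Where no array of a group detected a called gene, its fold is a bound. Art3 was added for its place in the cluster, and the promoter motifs after the sequences were seen.

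Replicate numbers recur in both groups. Deviations of same-numbered arrays correlated at -0.14 to 0.09, so the numbers were not treated as pairs. Of the lists, 1 gene is counted but not reported by itself here.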

Additional observations from a re-analysis of the deposited data

Results flagged for a closer look

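In 94 groups of 4 arrays, 5 held an array far from the other 3 by Dixon's criterion, where chance flags about 1 in 20 groups. The gap as a share of the group's range was 0.928 for Cxcl5, 0.871 for Cd274 and 0.956 for Csf3 with LPS, LPS 3 being the low array in each. It was 0.832 for Dcn with LPS, where LPS 2 was high, and 0.869 for Irf7 with saline, where saline 1 was low. No group of a Cxcl9 or Cxcl10 probe met the criterion.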

How the results depend on the processing

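The rise of all 3 probes kept its direction under every alternative run. The brighter Cxcl9 probe moved by more than its SD pooled over both groups (0.74) with mean spot brightness (5.53) and when all its probes were averaged (4.83), and the dimmer one (0.71) with mean spot brightness (4.00) and with slide series as a block (4.21). For Cxcl10 the log2 change ran from 4.27 with mean brightness to 6.40 with slide series as a block. Leaving out 1 array gave 6.16 to 6.91, 2.96 to 3.79 and 4.82 to 6.11 for the brighter Cxcl9, dimmer Cxcl9 and Cxcl10 probes, highest without LPS 3 in each case. The main setting called 1730 genes (864 higher, 866 lower). Slide series as a block, with the estimate resting on LPS 1, called 757 (489 and 268), of which 655 were among the 1730, and the first scan day alone, with 5 arrays, 432 (277 and 155), of which 413 were. Leaving out 1 array gave 1103 to 2003 genes, 622 to 947 higher and 481 to 1056 lower; the lowest counts came without LPS 2, and leaving out saline 2 gave 1144, with 519 lower, and LPS 4 496 lower. Median scaling over all gene probes moved the median of all genes to -0.35, with 347 higher (23.6% of calls in place of 49.9%); the cause was not tested. Of the listed genes 49 were called, 42 to 53 with 1 array left out and 21 within the first scan day. Dcn turned to -0.15 when its probes were averaged. With a replicate block 1526 genes passed, 1402 of them shared, and LPS 1 and LPS 3 correlated best with their own number while LPS 2 and LPS 4 did not. Over the named genes and alternatives, 929 calls were the same, 73 were lost, 6 gained and 1 reversed. Ifngr1 lost its call under median scaling (0.67, adjusted p = 0.142). Dim spots limit Cxcl10 in saline, Cxcr3, Ifng and the lymphocyte markers.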
